A study of Ovis aries with 9 samples.

Results

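The genes described here are the nuclear-encoded subunits of the mitochondrial respiratory chain and ATP synthase in sheep hepatocytes, 61 of the 28837 genes with a symbol in the count table. They were chosen by symbol alone, as the NDUF subunits of complex I, the SDH subunits of complex II, and the symbols of complexes III, IV and V that start with UQCR, COX4 to COX8 and ATP5. The pattern found 38 genes of complex I, 4 of complex II, 1 of complex III (UQCRH), 1 of complex IV (COX5A) and 17 of complex V, which include the inhibitor ATP5IF1. Other COX and UQCR subunits were not analysed here, and neither were mitochondrially encoded subunits, so complexes III and IV are each represented by a single gene. NDUFA4 carries a complex I name and is counted there, although the mammalian protein is now regarded as a complex IV subunit.

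The respiratory chain passes electrons from NADH (complex I) and from succinate (complex II) through complexes III and IV to oxygen, and pumps protons across the inner mitochondrial membrane. ATP synthase, or complex V, uses the resulting gradient to make ATP. In the liver this ATP pays for gluconeogenesis, urea synthesis and protein secretion, all of which a ruminant draws on in late pregnancy and in milk production, and the chain also takes up the electrons that fatty acid oxidation releases.

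Hepatocytes came from livers of female sheep. They were freed with collagenase and picked by hand, and a separate library was built from each cell with Smart-seq3xpress, a full-length method run in plates. There were 9 stages with 1 sample each: virgin; gestational days 40 to 50, 50 to 70, 70 to 80, 90 to 100, 100 to 120 and 140 to 150; and postpartum days 7 and 15 with lactation. The labels give neither the age nor the breed, nor how many animals stand behind a sample. Every test here therefore measures the spread between stage samples, which can hold both animal and technical differences. In the comparisons of phases that spread also holds any change between the stages of a phase. Counts were summed over the 246 to 553 cells of a stage, giving 114865665 to 272944124 reads per sample, and expressed as CPM (counts scaled to a common library size) after TMM scaling, a correction for composition. The hepatocyte label was borne out by ALB (albumin), which took 32003 to 113350 CPM in every sample, while each marker list of other liver or blood cells summed to at most 224 CPM in any sample (red cell genes, lactation day 7). The 61 genes held 1.52% of all reads.

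The subunits kept a stable order of abundance across the stages. Per kilobase of the gene length in the authors' table, NDUFA4 had the highest level, 2010 CPM per kb averaged over the 9 stages. It was followed by UQCRH, the hinge protein of complex III, at 1430 CPM per kb. Next came ATP5MG, a membrane subunit of ATP synthase, and ATP5IF1, the peptide that blocks ATP hydrolysis by the enzyme, at 1002 CPM per kb each. At the other end stood NDUFV3, an accessory subunit of the NADH-binding module, at 13.1 CPM per kb, and NDUFS1, the largest iron-sulfur subunit of complex I, at 15.5 CPM per kb. SDHB, the iron-sulfur subunit of complex II, and SDHA, its flavoprotein, had 174 and 127 CPM per kb. SDHC and SDHD, which anchor the complex in the membrane, had 159 and 21.2 CPM per kb. Their deposited lengths were 1295 and 8991 bases, and before division by length their mean levels were 206 and 190 CPM. The order of the 61 genes by CPM per kb was nearly the same in any pair of stages, with Spearman's rho of 0.976 to 0.995 over 36 pairs, a description across genes that share the same lengths. NDUFA4L2, a paralogue of NDUFA4 that is known from hypoxic cells in human and mouse, was at 0 to 0.0235 CPM in all 9 samples and did not pass the filter on low counts. The other 60 genes passed it.

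Almost every hepatocyte carried reads of almost every subunit. After each cell was thinned to 155092 reads, which left out 340 shallower cells of 3404, the median subunit among the 60 was detected in 99.8% of cells, averaged over stages, and 52 of 60 were detected in at least 95% of cells. NDUFV3 was the least often detected, in 62.7% of thinned cells and 68.2% of unthinned cells. NDUFA4L2 was found in 0.0748% of thinned cells.

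Summed over the 61 genes, the level was 12823 CPM in the virgin sample. Along gestation it was 16932 CPM at days 40 to 50, 15275 at days 50 to 70, 13573 at days 70 to 80, 14686 at days 90 to 100, 19090 at days 100 to 120 and 14157 at days 140 to 150. In lactation it was 13276 CPM at day 7 and 16161 at day 15. The highest stage was 1.49 times the lowest, and lactation day 15 lay inside the range of the gestation samples. Lactation day 7 and the virgin sample were below all 6 of them. With library-size scaling lactation day 15 was highest, at 17868 CPM, and lactation day 7 was inside the gestation range. Counting error was negligible for these sums, with an exact Poisson 95% interval of 12809 to 12836 CPM in the virgin sample.

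By phase, the sum averaged 14718 ± 2040 CPM in lactation (SD, n = 2) and 15619 ± 2054 CPM in gestation (SD, n = 6), a ratio of 0.942. That direction depends on the scaling. With library-size scaling the same sums were 16149 ± 2432 CPM in lactation and 14957 ± 1461 CPM in gestation, a ratio of 1.08, because the TMM factors were 1.09 and 1.11 in the lactation samples and 0.92 to 1.05 in the gestation samples. The most abundant gene, ALB, differed between the same samples, and its part in the shift was not tested. It had 48042 CPM at lactation day 7 and 32003 CPM at day 15, against 91398 to 113350 CPM in gestation. Of 11 hepatocyte markers, 10 had a negative difference for lactation minus gestation, with a median of -0.56 on the log2 scale, and none passed at an adjusted p of 0.05.

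**Figure D1:**
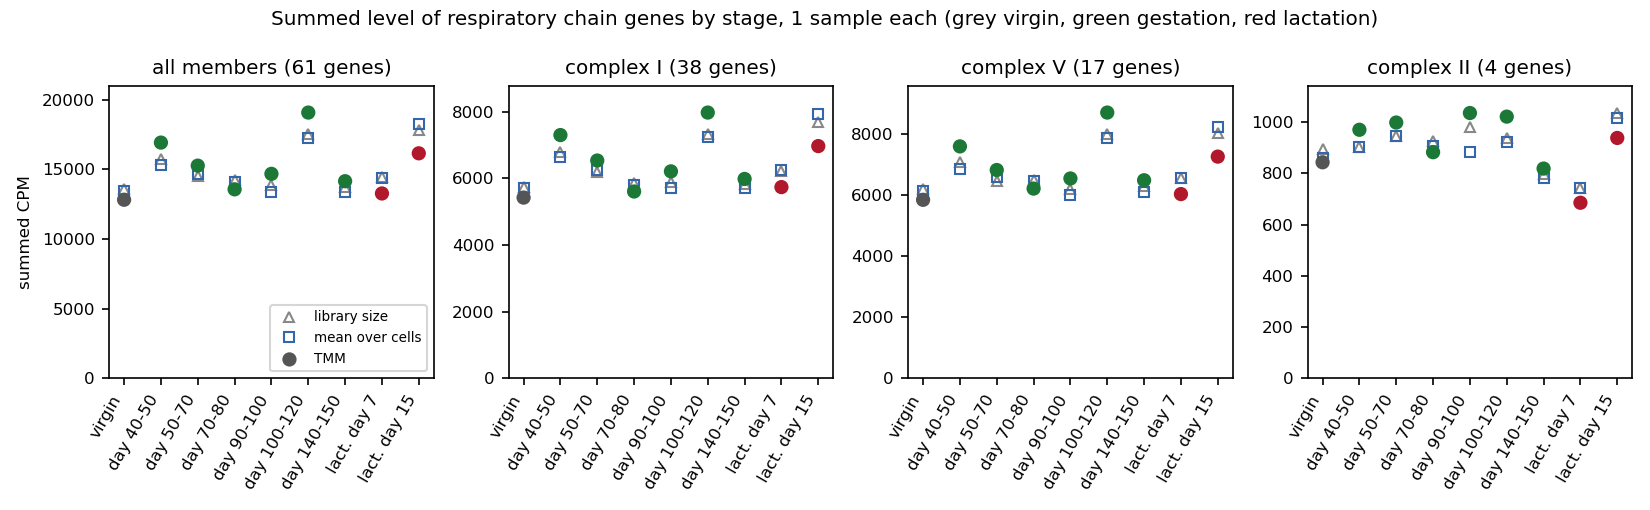
Summed level of all 61 genes and of complexes I, V and II (vertical axis, CPM) in each of the 9 stages (horizontal axis, 1 sample each), with TMM scaling (filled circles, coloured by phase), library-size scaling (triangles) and the mean over cells (squares). Complexes I and V trace the same shape with their highest TMM value at gestational days 100 to 120, while complex II is lowest at lactation day 7.

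Complexes I and V kept their proportions. UQCRH, the single gene of complex III, had a highest stage 2.18 times the lowest, beside 1.49 for the sum of all 61 genes. A single gene and a sum are not alike in this, and the single genes NDUFA2 and ATP5F1E ranged more widely, at 2.27 and 2.19. Complex I made up 41.3% to 43.2% of the summed CPM and complex V 44.5% to 45.7% in every stage. Complex I averaged 6356 ± 871 CPM in lactation and 6604 ± 885 CPM in gestation (SD), with 5424 CPM in the virgin sample. Complex V averaged 6636 ± 867 CPM in lactation and 7050 ± 932 CPM in gestation, with 5835 CPM in the virgin sample. Complex II, which also belongs to the tricarboxylic acid cycle, varied more in its share, between 5.16% at lactation day 7 and 7.06% at gestational days 90 to 100. It averaged 812 ± 179 CPM in lactation and 955 ± 85.9 CPM in gestation, with 844 CPM in the virgin sample. These differences between lactation and gestation were smaller than the spread within a phase for complexes I and V. For complex II the lactation mean lay below all gestation samples (819 to 1036 CPM) with TMM scaling, and its 2 samples stood at 686 CPM on day 7 and 939 CPM on day 15. With library-size scaling the lactation mean lay inside the gestation range (797 to 982 CPM), but neither sample did. Day 7 was below that range at 745 CPM and day 15 above it at 1038 CPM.

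Between lactation and gestation no subunit passed the test. With edgeR's quasi-likelihood test and an adjusted p under 0.05, 0 of 60 subunits were called, 12 of 20263 genes were called in the whole table (0.0592%), and the smallest adjusted p among the subunits was 0.562. At an unadjusted p under 0.05, 0 subunits were higher and 0 were lower in lactation, where 5.01% and 4.39% of all genes were. The subunits' differences ran between -0.37 and 0.28 on the log2 scale, with a median of -0.08 beside -0.01 for all genes. Library-size scaling shifted the median of the subunits to 0.12 and that of all genes to 0.18, and with equal weight per cell the medians were 0.14 for the subunits and 0.07 for all genes. Without lactation day 7 they were 0.06 for the subunits and -0.07 for all genes. Without day 15 they were -0.22 for the subunits and -0.09 for all genes. The test also bounded the change: the 95% interval lay within 2-fold in either direction for 60 of 60 subunits, and for 7174 of the 20263 genes tested. These shares were not matched for level. All 60 subunits had a mean of at least 20 CPM, as did 4141 of the genes tested, and the median SE was 0.19 for the subunits and 0.46 for all genes.

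**Figure D2:**
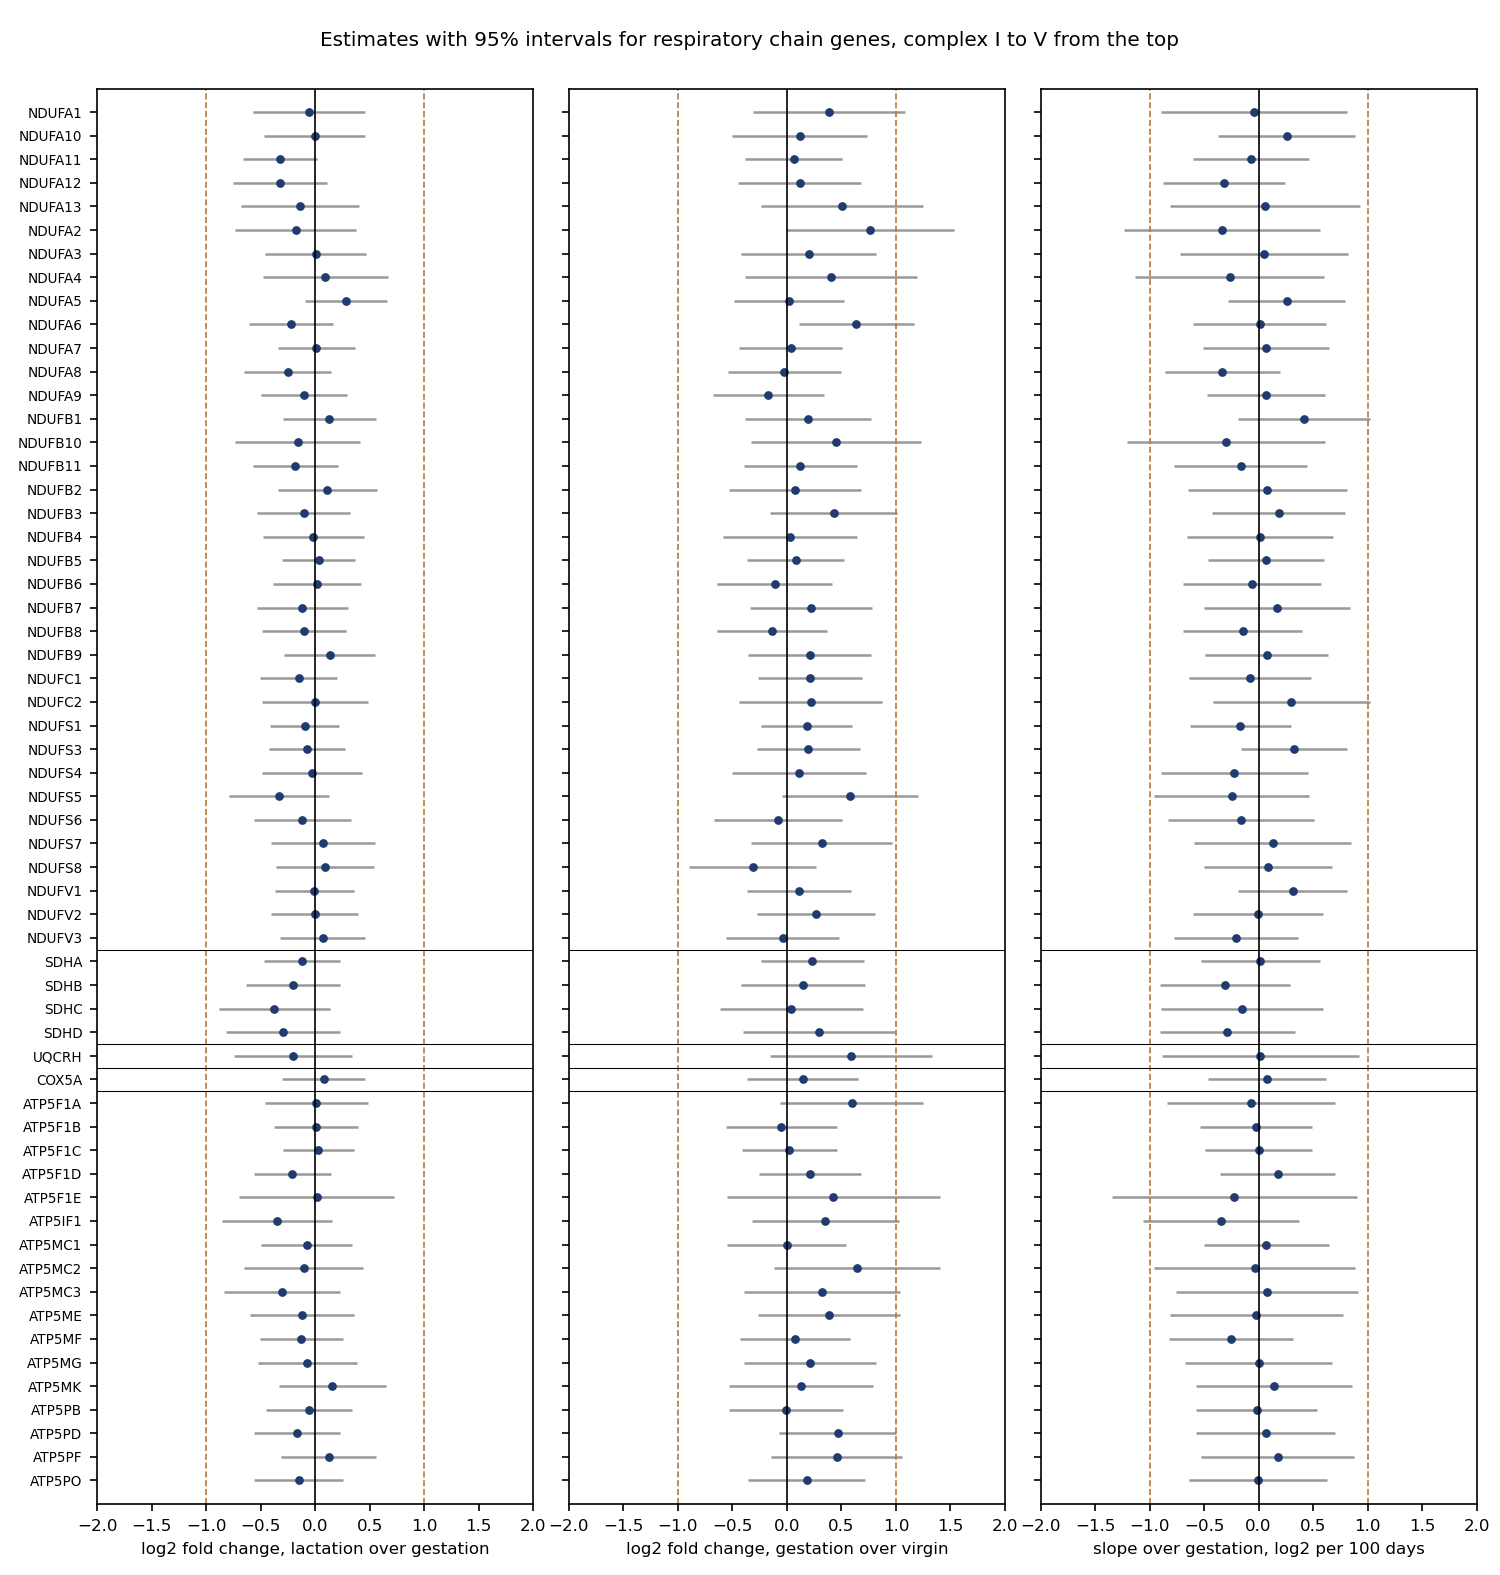
Estimated log2 fold change of lactation over gestation (left) and gestation over virgin (middle), and slope over gestation in log2 per 100 days (right), for the subunits named on the axis, ordered from complex I at the top to complex V at the bottom; bars are 95% intervals from edgeR and dashed lines mark log2 values of -1 and 1. Every interval drawn lies between the dashed lines for lactation over gestation, and most do for gestation over virgin.

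Within complex I, NDUFA11, an accessory subunit of the membrane arm, came closest. It had 59.1 CPM at lactation day 7 and 66.2 CPM at day 15, against a lowest, median and highest of 70.4, 79.4 and 86.3 CPM in gestation. With TMM scaling both lactation samples were below all gestation samples, as for no other subunit of the 60 and for 4.86% of all genes tested. With library-size scaling day 15 had 73.2 CPM, inside the gestation range of 69.2 to 81.8 CPM, and 0 subunits and 2.68% of all genes had this pattern. The difference was -0.32 (SE 0.15) on the log2 scale, with an unadjusted p of 0.063 and an adjusted p of 0.562 (edgeR), and it was -0.13 with library-size scaling and -0.02 with equal weight per cell. With TMM scaling 0 subunits had both lactation samples above all gestation samples, against 6.14% of all genes. With library-size scaling 2 of the 60 subunits had this pattern, NDUFA5 among them, as did 12.7% of all genes. NDUFA5, an accessory subunit of the matrix arm, had the largest positive difference, 0.28 (SE 0.17), with an edgeR adjusted p of 0.634. Its levels were 114 CPM at lactation day 7 and 145 CPM at day 15, against 95.4 to 124 CPM in gestation, so the groups overlapped with TMM scaling. The difference of NDUFA5 was 0.47 with library-size scaling and 0.10 without day 15. NDUFA12, another accessory subunit, and NDUFS5, which sits on the intermembrane face, had differences of -0.32 (SE 0.19) and -0.33 (SE 0.21), which were -0.13 and -0.14 with library-size scaling.

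With TMM scaling all 4 complex II subunits had negative differences, none of them called. SDHC had the largest, -0.37 (SE 0.23; edgeR adjusted p = 0.641), with 138 CPM at lactation day 7 and 198 CPM at day 15, against a lowest, median and highest of 164, 224 and 269 CPM in gestation. SDHD had 118 CPM at day 7 and 212 CPM at day 15, against 159, 205 and 229 CPM in gestation. SDHB had 173 CPM at day 7 and 240 CPM at day 15, against 186, 243 and 266 CPM in gestation. In these 3 genes, with TMM scaling, lactation day 7 was below every gestation sample and day 15 was inside the gestation range. With library-size scaling day 7 of SDHB was no longer below every gestation sample. On that scale day 15 was above every gestation sample for SDHB (265 CPM, against at most 252) and SDHD (235 CPM, against at most 218). Without the day 7 sample the difference of SDHC was -0.14 and those of SDHB and SDHD became positive, 0.01 and 0.07. With library-size scaling the 3 differences were -0.17 (SDHC), -0.01 (SDHB) and -0.10 (SDHD). SDHA, the catalytic subunit, differed by -0.12 (SE 0.16) with TMM scaling. With library-size scaling it had 278 CPM at day 7 and 319 CPM at day 15, against 259 to 325 CPM in gestation. On that scale its mean was higher in lactation than in gestation.

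UQCRH differed by -0.21 (SE 0.24) between lactation and gestation, and COX5A, a subunit of cytochrome c oxidase on the matrix side, by 0.08 (SE 0.17). In complex V, ATP5F1A and ATP5F1B, the alternating subunits of the catalytic head, both differed by 0.01. ATP5IF1 had the largest difference of the complex, -0.35 (SE 0.23; edgeR adjusted p = 0.659). Its level was 353 CPM at lactation day 7 and 495 CPM at day 15, against a lowest, median and highest of 424, 548 and 661 CPM in gestation. The difference of ATP5IF1 was -0.15 with library-size scaling, -0.11 with equal weight per cell and -0.12 without lactation day 7. The 3 genes that encode the same mature ring subunit c gave -0.08 (ATP5MC1), -0.11 (ATP5MC2) and -0.30 (ATP5MC3, -0.11 with library-size scaling), with overlapping groups. With library-size scaling the lactation mean was above the gestation mean for ATP5MC1 and ATP5MC2, so the direction was not shared on that scale.

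Between gestation and virgin no subunit passed the test, and the share of positive differences depended on the scaling. With edgeR, 0 of 60 subunits had an adjusted p under 0.05, as did 1 of 20263 genes (0.00494%). At an unadjusted p under 0.05, 1 subunit was higher and 0 were lower in gestation, against 2.3% and 2.15% of all genes. Of the 60 subunits, 50 had positive and 10 negative differences, with a median of 0.20 beside 0.06 for all genes. With library-size scaling 35 were positive and 25 negative, with a median of 0.05 beside -0.08 for all genes, and with equal weight per cell 30 and 30, with a median of 0.01 beside -0.05. The virgin sample lay below all 6 gestation samples for 22 subunits, a pattern of 12.3% of all genes, and above all of them for 3 (NDUFA9, NDUFB8 and NDUFS8, named after their values were seen), a pattern of 14.8% of all genes. For 35 subunits it lay inside the gestation range. With library-size scaling the virgin sample lay below for 9 subunits, against 7.79% of all genes, and above for 7, against 21.8%.

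NDUFA6, an accessory subunit of the complex I matrix arm, was the subunit under the unadjusted threshold. It had a lowest, median and highest of 180, 214 and 238 CPM in gestation, against 135 CPM in the virgin sample, so all gestation samples were higher. The difference was 0.64 (SE 0.24), with an unadjusted p of 0.023 and an adjusted p of 1 (edgeR). NDUFA2, also of the matrix arm, had the largest difference, 0.76 (SE 0.35), with 347, 440 and 615 CPM in gestation against 271 CPM in the virgin sample. UQCRH had 677, 711 and 1162 CPM in gestation against 534 CPM in the virgin sample, a difference of 0.59 (SE 0.33). In complex V, ATP5F1A (0.59, SE 0.30), ATP5MC2 (0.64, SE 0.34), ATP5PD (0.47, SE 0.24) and ATP5PF (0.46, SE 0.27) had the smallest p-values, all with an adjusted p of 1. ATP5PD and ATP5PF encode parts of the peripheral stalk that holds the catalytic head in place. SDHA had 281, 288 and 343 CPM in gestation against 252 CPM in the virgin sample, and a difference of 0.23 (SE 0.21).

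No subunit passed between lactation and virgin either. In edgeR 0 of 60 subunits and 0 of 20263 genes (0.0%) passed at an adjusted p under 0.05. At an unadjusted p under 0.05 it was 0 subunits in either direction, against 2.5% of all genes higher and 2.43% lower in lactation. The median difference of the subunits was 0.11 beside 0.05 for all genes, with 44 positive and 16 negative. Without lactation day 7 it was 0.25, with 54 positive and 6 negative, and without day 15 it was -0.00, with 30 of each. The smallest p-values belonged to ATP5PF, with a difference of 0.58 (SE 0.30), and ATP5F1A, with 0.60 (SE 0.33). ATP5F1A had 511 and 540 CPM in lactation, against 346 CPM in the virgin sample. This comparison shares its virgin sample with gestation minus virgin and its lactation samples with lactation minus gestation.

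Over gestation the subunits followed no common slope. In a fit over the 6 gestation samples, edgeR called 0 of 60 subunits at an adjusted p under 0.05 and 6 of 17848 genes (0.0336%). At an unadjusted p under 0.05, 0 subunits had a positive and 0 a negative slope, against 3.2% and 3.41% of all genes. Slopes were positive for 29 subunits and negative for 31, with a median of -0.00 log2 per 100 days beside 0.01 for all genes. NDUFB1, an accessory subunit of the membrane arm, had the smallest p, with a slope of 0.42 (SE 0.26; adjusted p = 0.908). NDUFV1, the flavoprotein that takes electrons from NADH, had a slope of 0.31 (SE 0.22), and SDHB one of -0.31 (SE 0.26), which was 0.10 without the days 140 to 150 sample. The median slope was 0.18 when the days 140 to 150 sample was left out.

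Several steps between neighbouring stages went one way for most subunits. Of the 60 subunits, 28 had their highest level at days 100 to 120, 10 at lactation day 15 and 9 at days 40 to 50. The lowest level was at lactation day 7 for 24, in the virgin sample for 17 and at days 70 to 80 for 11. With library-size scaling 35 were highest at lactation day 15 and 15 at days 100 to 120, and 13 were lowest at lactation day 7. With 1 sample on each side no step can be tested, and the counts that follow use a fold of 1.25, chosen after the values were seen, as were the 3 steps described first, which had the most subunits past it. At days 100 to 120 over days 90 to 100, 25 subunits were past that fold upward and 0 downward, against 30.6% and 32.8% of all genes, with a median difference of 0.27. At days 140 to 150 over days 100 to 120, 1 was past it upward and 33 downward, against 33.7% and 29.7% of all genes, with a median of -0.34. At lactation day 15 over day 7, 29 were past it upward and 0 downward, against 31.9% and 33.2% of all genes, with a median of 0.31. With library-size scaling the 3 medians were 0.23, -0.26 and 0.33. Among the 4140 or 4141 genes with a mean of at least 20 CPM, a level that all 60 subunits reached, the upward and downward shares were 24.2% and 16.1%, 14.8% and 31.3%, and 36.1% and 13.6% in the same steps. In each of these 3 steps the genes of that level as a whole leaned the same way as the subunits. The other 5 steps had TMM medians of 0.20 (days 40 to 50 over virgin), -0.02 (days 50 to 70 over 40 to 50), -0.17 (days 70 to 80 over 50 to 70), 0.12 (days 90 to 100 over 70 to 80) and -0.11 (lactation day 7 over days 140 to 150). With library-size scaling those 5 medians lay between -0.03 and 0.05.

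**Figure D3:**
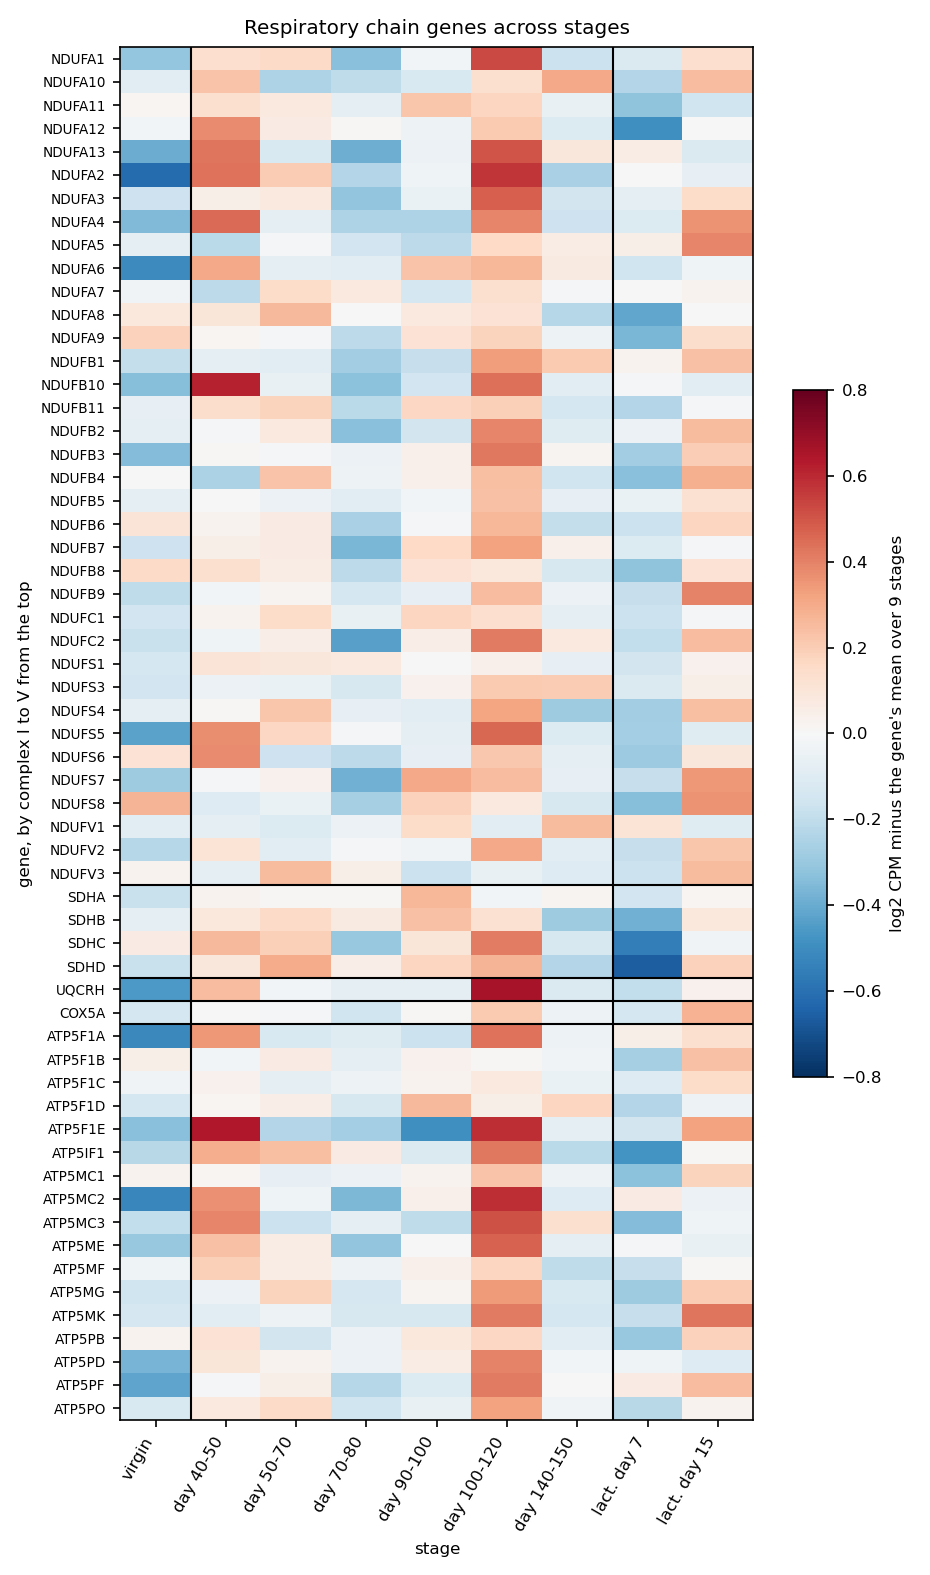
Level of the subunits named on the axis (rows, complex I at the top to complex V at the bottom) in 9 stages (columns, 1 sample each), as log2 CPM minus each gene's own mean over stages; red is above and blue below that mean. With the TMM scaling used here the column of days 100 to 120 is red for most rows and that of lactation day 7 blue for most, and the row of NDUFV1 runs against the rest.

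The variation over stages was modest. The SD of log2 CPM over the 9 stages had a median of 0.21 among the subunits, beside 0.27 among the 4141 genes with a mean of at least 20 CPM. It was smallest for ATP5F1C, the rotating central shaft of ATP synthase, at 0.08, where the levels ran between 179 and 213 CPM. It was largest for ATP5F1E, a small subunit of the same shaft, at 0.41, with 174 CPM in the virgin sample, 340 CPM at days 40 to 50 and 156 CPM at days 90 to 100. Both were named after their values were seen. The likeness of each subunit to the median of the others was measured by Spearman's rho over 9 stages, as a description. UQCRH and ATP5MG had the highest rho, 0.93 each, and COX5A had 0.92. NDUFV1 had the lowest, -0.30, with its highest level of 53.4 CPM at days 140 to 150.

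The ratio of reads between genes of the same complex was not fixed across the stages. ATP5F1A and ATP5F1B occur in equal numbers in the catalytic head. The ratio of their CPM was 1.47 at lactation day 7 and 1.10 at day 15, between 1.02 and 1.58 in gestation (1.25 ± 0.242, SD, n = 6), and 0.796 in the virgin sample, which was the only one below 1. ATP5F1B itself varied little in gestation (398 to 439 CPM), so in gestation the ratio followed ATP5F1A. Among the subunit c genes, ATP5MC2 over ATP5MC1 was 0.993 at lactation day 7 and 0.642 at day 15, averaged 0.797 ± 0.140 in gestation (SD, n = 6), and was 0.514 in the virgin sample. SDHC over SDHA was 0.540 at lactation day 7 and 0.688 at day 15, averaged 0.740 ± 0.148 in gestation and was 0.843 in the virgin sample. These ratios were chosen with the values known, and no test was made of them.

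**Figure D4:**
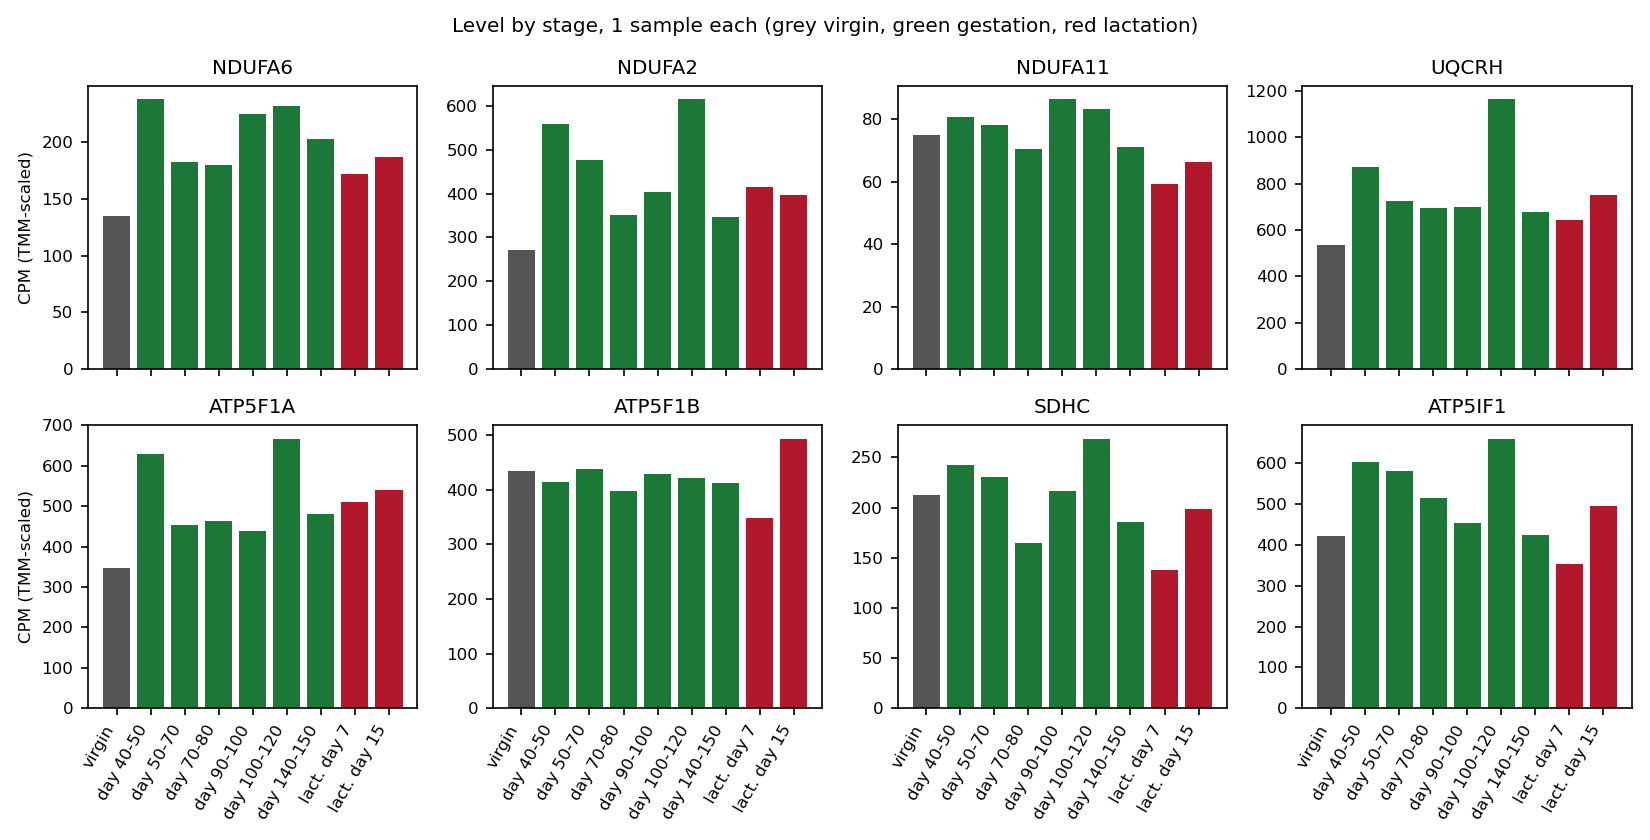
Level (vertical axis, TMM-scaled CPM) of 8 subunits in each stage (horizontal axis, 1 sample each; grey virgin, green gestation, red lactation). ATP5F1B is nearly level across gestation while ATP5F1A has peaks at days 40 to 50 and 100 to 120, and both lactation bars of NDUFA11 are below all its gestation bars on this scale.

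Other mitochondrial genes were followed in lists chosen with earlier results of these data known, and no member of any list was called in any of the 4 comparisons. Of 25 assembly factors in the table, 12 had positive and 13 negative differences for lactation minus gestation, with a median of -0.01. At an unadjusted p under 0.05 (edgeR), 2 of them were higher and 0 lower in lactation. FOXRED1, which helps to assemble complex I, was not among these and differed by -0.65 (SE 0.32, edgeR adjusted p = 0.576). Of 14 enzymes of the tricarboxylic acid cycle, which supplies the chain with NADH and succinate, 7 had positive and 7 negative differences, with a median of 0.00. SUCLG2, the GTP-forming subunit of succinyl-CoA ligase, had 301 and 313 CPM in lactation, against 401 to 521 CPM in gestation. Its groups did not overlap, and its difference of -0.58 (SE 0.17) had an unadjusted p of 0.0071 and an adjusted p of 0.308 (edgeR). Among 10 electron carriers and feeders the median was -0.23, with ETFA and ETFB, which pass electrons from fatty acid oxidation to ubiquinone, at -0.37 (SE 0.21) and -0.38 (SE 0.20). Of 74 mitochondrial ribosomal proteins tested, 36 had positive and 38 negative differences, with a median of -0.00. Of 8 carriers of nucleotides, phosphate and the outer membrane, 4 had positive and 4 negative differences. Their slopes over gestation were positive in 7 of 8, beside 9113 of all 17848 genes. SLC25A4, the ADP/ATP carrier, was among the 7, with a slope of 0.50 (SE 0.22, edgeR adjusted p = 0.748). For gestation minus virgin, differences were positive in 18 of 25 assembly factors, 9 of 14 cycle enzymes and 47 of 74 mitochondrial ribosomal proteins, with medians of 0.11, 0.08 and 0.09. They were positive in 3 of 8 carriers, with a median of -0.04, and in 11099 of all 20263 genes, with a median of 0.06.

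Of 14 regulators of mitochondrial gene expression, 9 had positive differences for lactation minus gestation (median 0.12), 8 for gestation minus virgin (0.12) and 9 for lactation minus virgin (0.15). PPARGC1A, the coactivator that drives expression of respiratory genes, had 23.7 CPM at lactation day 7 and 42.8 CPM at day 15, between 30.4 and 104.7 CPM in gestation, and 85.6 CPM in the virgin sample. Its differences were -0.73 (SE 0.43) for lactation minus gestation and -1.36 (SE 0.60) for lactation minus virgin, with edgeR adjusted p of 0.632 and 0.965. TFAM, the factor that packages and transcribes mitochondrial DNA, stayed between 32.5 and 43.3 CPM in the 9 samples. NRF1, a transcription factor of respiratory genes, was between 5.8 and 9.9 CPM. CYCS and CYC1 were not analysed here. Across gestation 72 of 73 cytosolic ribosomal proteins had a positive slope, beside 9113 of all 17848 genes, with a median of 0.30, and none was called. Their summed level did not rise steadily. It was 51217 CPM at days 40 to 50, 42817 at days 70 to 80, 73290 at days 100 to 120 and 53483 at days 140 to 150.

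In single hepatocytes the 61 genes took a median of 1.34% of a cell's reads in the virgin sample. In gestation the medians were 1.50%, 1.43%, 1.38%, 1.28%, 1.70% and 1.24% in order of day, and in lactation they were 1.43% at day 7 and 1.83% at day 15. These shares are not TMM-scaled, and on this scale lactation day 15 and days 100 to 120 were the highest stages. Cells within a stage differed by far more than counting error. After thinning, the coefficient of variation of a cell's reads on the 61 genes was 17.9% to 23.0% in 8 stages and 29.1% at days 140 to 150, where Poisson counting alone would give about 2.18%. At days 140 to 150 the 10th and 90th percentiles were 0.985% and 1.88%.

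**Figure D5:**
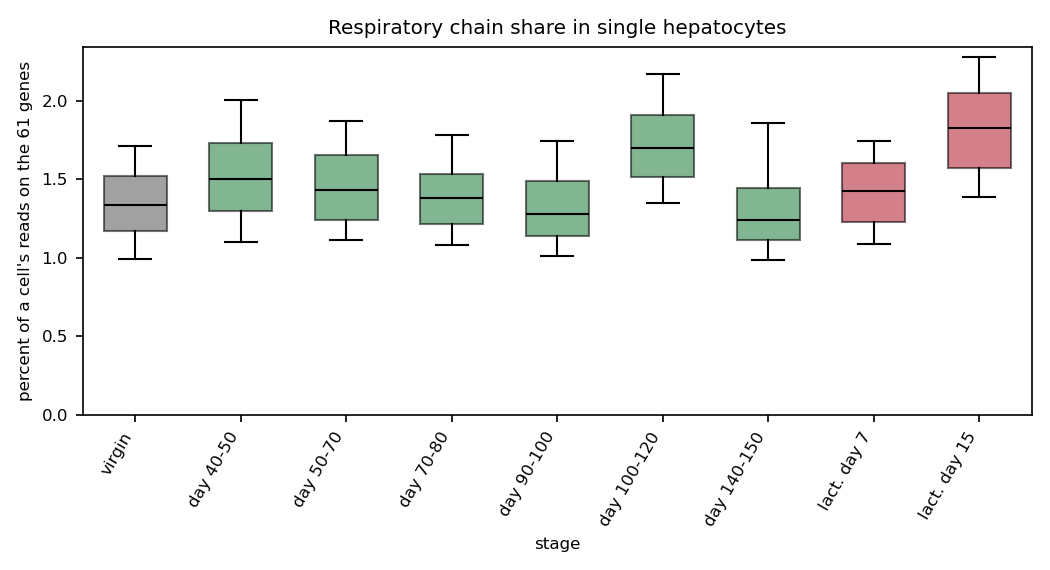
Percent of a cell's reads that fell on the 61 genes (vertical axis) in each stage (horizontal axis); boxes span the quartiles with the median as a line, and whiskers reach the 10th and 90th percentiles over cells. Lactation day 15 has the highest median, 1.83%, and days 140 to 150 the lowest, 1.24%, with a long upper whisker.

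Across the thinned cells of a stage, complex I and complex V were high in the same cells, with Spearman's rho of 0.72 to 0.84 in the 9 stages, over 213 to 496 cells. Complex I and complex II were less closely related, with rho of -0.07 to 0.52. These correlations are descriptions, since all genes of a cell share its library, and shares of 1 cell compete for the same total. The 61 genes also went with the mitochondrial ribosomal proteins (rho of 0.45 to 0.70) and the cytosolic ones (0.30 to 0.72). With the tricarboxylic acid cycle list rho was lower, from 0.0003 at days 140 to 150 to 0.46 in the virgin sample. Against the hepatocyte markers rho was -0.63 at days 140 to 150 and between -0.42 and 0.22 elsewhere. In that stage the 123 of 492 cells with the highest share of respiratory chain reads had a median of 4.63% of reads on ALB, and the 123 with the lowest share had 10.7%. Median reads per cell were 428670 in the highest 123 and 357800 in the lowest 123, and the part of depth in this was not tested.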

How the data were processed

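The authors deposited whole-number counts per gene and cell, not normalized, and these were used. Trimmomatic 0.39, HISAT2 2.1.0 and featureCounts 2.0.1 are named in the submitters' processing notes. The genome build, the handling of molecular identifiers and of reads that match several places, and the use of strand are not given in the sources used here, so reads of near-identical copies may be split or shared. Gene lengths are the authors' deposited values. The table had 28861 rows, and 24 without a gene name (0.474% of reads) were left out. RefSeq's gene list for ARS-UI_Ramb_v3.0 holds all 61 symbols. No cell was removed and no doublets were called, since cells were picked singly, and 0 of 3404 cells had the same counts as another. Reads per cell ran from 36518 to 3842012.

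Counts were summed per stage and tested with edgeR 4.0.16 in R 4.3.3 (filterByExpr, TMM, glmQLFit, glmQLFTest, Benjamini-Hochberg over all genes tested, threshold 0.05), with a term per phase over 9 stages. All phases share 1 estimate of the spread, and the single virgin sample is assumed to vary like the others. Slopes used the 6 gestation stages at the midpoint of their days. Differences are log2 fold changes. Alternatives were library-size scaling, no filter, DESeq2 1.42.0, the mean CPM per cell (log2 of CPM plus a pseudocount of 1, limma 3.58.1), totals without the 20 highest genes, and each stage left out. On simulated counts for lactation minus gestation (19531 genes) the test recovered 11.9%, 86.6% and 98.5% of genes changed by a log2 of 1, 2 and 3, with 5 false calls, so most changes of the smallest size were not called. Poisson intervals cover counting error only. Tables and figures were made in Python 3.11.15 (SciPy 1.17.1, matplotlib 3.10.9, pandas 2.3.3, numpy 2.4.6).

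Named in the text are, for each comparison, called subunits or, up to 12, those of smallest p, the 2 most abundant of each complex, the subunit forms of complexes I, IV and V, and all SDH subunits; other names are marked. The subunits and lists were chosen with earlier results of these data known. A table of normalized values and the sheet of cells were not used. One tested subunit is not reported here by name and is not drawn in the figures with a row per subunit.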

Additional observations from a re-analysis of the deposited data

Results flagged for a closer look

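In 66 sets of 6 gestation samples, 1 sample stood far from the other 5 in 8 sets, where chance flags about 1 in 20. The sets share the same 6 samples and their TMM factors, so they are not independent. The count therefore cannot be read against that rate. In 6 of the 8 sets days 100 to 120 was high. ATP5MK had 488 CPM there and at most 355 CPM in the other gestation samples, ATP5PD 680 and 552, ATP5PF 653 and 506, ATP5MC1 644 and 559, NDUFB3 239 and 183, and NDUFB5 66.0 and 56.2. SDHA was high at days 90 to 100, with 343 CPM and at most 290 CPM in the others. SDHB was low at days 140 to 150, with 186 CPM and at least 238 CPM in the others. These values are TMM-scaled. With library-size scaling the corresponding pairs were 325 and 300 CPM for SDHA, 592 and 556 CPM for ATP5MC1, and 449 and 350 CPM for ATP5MK.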

How the results depend on the processing

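No subunit was called with library-size scaling, no filter, DESeq2, equal weight per cell or with 1 stage left out, in the comparisons that each could be run for (without the virgin sample only lactation minus gestation). Totals without the 20 highest genes were applied to the sums only. The direction of small medians and sums depended on the scaling and on single stages. For lactation minus gestation the median over the subunits was -0.08, and it was 0.12 with library-size scaling, 0.14 with equal weight per cell, and between -0.22 (without lactation day 15) and 0.063 (without day 7) when 1 stage was left out. For gestation minus virgin (0.20) it was 0.049 and 0.012 under the same 2 scalings. For lactation minus virgin (0.11) it lay between -0.0027 (without day 15) and 0.25 (without day 7). The slope (-0.00) lay between -0.12 and 0.18 (without days 140 to 150). Lactation over gestation with library-size scaling and with the mean over cells was 1.08 and 1.11 for all subunits, 1.10 and 1.14 for complex I, 0.973 and 0.988 for complex II, 1.21 and 1.27 for COX5A, and 1.08 and 1.11 for complex V. With 1 stage left out it ran from 0.718 to 0.983 for complex II and from 0.903 to 1.21 for COX5A. Gestation over virgin for complex II was 1.02 with library-size scaling and 1.01 without the 20 highest genes. For COX5A it was 1.00, 0.987 and, with the mean over cells, 0.963, and it was 1.28 with NDUFA4 counted beside COX5A, a choice made after the data were seen. More subunits changed sign with library-size scaling than are listed here, since the median for lactation minus gestation did so. Of the single-gene values compared across settings, 8 were marked as changing direction. For lactation minus gestation these were NDUFA8 (0.0032), NDUFA6 (0.013) and SDHB (0.051) with equal weight per cell, and, with 1 stage left out, SDHD (-0.77 to 0.065) and SDHB (-0.46 to 0.0098), both positive without day 7. For the slope they were SDHB (-0.46 to 0.10), SDHD (-0.46 to 0.14) and NDUFA10 (-0.055 to 0.69), each with the changed sign without days 140 to 150. The cause was not tested. No paired analysis was possible because the labels give each stage 1 sample and no shared replicate number. The counts of subunits whose samples do not overlap, the steps and the stages of highest level were recomputed with library-size scaling after the data were seen. The 2 lactation samples and 1 virgin sample limit the precision of the comparisons.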
